A study of Rattus norvegicus with 145 samples.

Results

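The response of male rat liver to 1000 mg/kg/day (mkd) acetamide was measured in both experiments of the study, and the comparison below sets the change over vehicle in experiment A against the change over vehicle in experiment B. Its members were chosen by label alone: 20 of the 145 rats of the series, 5 in each of 4 groups. Liver RNA (left lobe) was sequenced on day 8 after 7 daily gavages. The experiment A groups were male Hsd:WI Wistar rats (Envigo, Israel) aged 9 to 10 weeks, given water vehicle or acetamide at 1000 mkd in a dose-range finding study. The experiment B groups were male Crl:WI Wistar rats (Charles River, USA) aged 8 to 10 weeks, given the same vehicle or dose, sampled 24 h after the last gavage and killed in randomized order. An overnight fast is stated for experiment A, and sampling in experiment B is described as done the same way. Rats are numbered here by their replicate label, and for experiment A treated rats the number in the sample title is higher by 1. Rats were housed in pairs and the cage of each rat was not given, so cage could not be modelled. Stock, supplier, age range and time of the experiment all change together with the experiment and cannot be told apart.

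Acetamide is a small amide found in foods that causes liver tumours in rats at high chronic doses. The adult liver consists mostly of quiescent hepatocytes, which make plasma proteins, bile acids and cholesterol, burn fatty acids and clear foreign chemicals with cytochrome P450 enzymes. When hepatocytes re-enter the cell cycle they switch on the replication genes of S phase and then the mitotic genes of G2/M phase. Interferon-stimulated genes are a separate programme, switched on when interferons or viral nucleic acids are sensed, and they include antiviral enzymes such as the oligoadenylate synthetases and chemokines that attract T cells.

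The 20 libraries held between 20196236 and 37001581 reads on genes, and no pair of libraries was identical. The 10 hepatocyte markers, among them albumin and transthyretin, were all measured and together took 291900 to 388700 CPM (counts per gene scaled to a common library size) in experiment A vehicle rats and 241600 to 315300 in experiment B vehicle rats. The make-up of the libraries differed in 1 group. The 50 most abundant genes took 47.8 to 51.5% of reads in experiment A vehicle rats and 44.5 to 50.4% in all experiment B rats, but 46.5, 32.9, 48.2, 39.8 and 39.0% in experiment A rats 1 to 5 at 1000 mkd. The scaling factors of edgeR (TMM) in those rats were 1.04, 1.75, 0.975, 1.30 and 1.35, against 0.794 to 0.911 in their vehicle group. Rat 2 stood apart from the others most, and its values are given separately where they decide a result. When reads were scaled by library size alone, the median gene had a difference of 0.514 between the responses on the log2 scale, against 0.00523 with TMM, so every difference below is relative to the typical gene.

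Acetamide at 1000 mkd changed many liver genes in experiment A and none by the same test in experiment B. In experiment A, 1584 of 11376 genes tested were higher and 833 lower than vehicle (|fold change| ≥ 1.5 and adjusted p ≤ 0.05, edgeR), or 13.9% and 7.32% of genes. With library size scaling alone the split was 5191 higher and 142 lower. In experiment B 0 genes passed with edgeR or with limma voom, and 2 passed with DESeq2, Mcm5 and LOC257642, both named after their values were seen. At an unadjusted p under 0.05, 482 genes (4.24%) differed from vehicle in experiment B by edgeR. Treated and vehicle rats did not overlap for 16.3% of genes in experiment A and for 0.738% in experiment B. The typical spread between rats was alike in the 4 groups, with a median SD per gene of 0.273, 0.287, 0.262 and 0.256 in log2 CPM for experiment A vehicle, experiment A treated, experiment B vehicle and experiment B treated. The limma voom weight, lower with more spread, was 1.03, 0.760, 1.10 and 1.16 in that order. The SD of the mean over interferon genes was 0.664, 1.22, 0.275 and 0.357. For S phase genes it was 0.202, 0.236, 0.251 and 0.15. The edgeR intervals use a single spread per gene for all 4 groups.

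Whether the responses themselves differed was tested as the experiment-by-treatment interaction, the log2 fold change in experiment A minus that in experiment B. With edgeR on the 20 rats, 0 of 11376 genes passed (0% called), and the smallest adjusted p was 0.0605. At an unadjusted p under 0.05 the interaction held 2486 genes (21.9%), of which 1498 were more positive and 988 more negative in experiment A. At adjusted p ≤ 0.1 it held 668 genes with a difference of at least 1.5-fold (5.87%), 574 more positive and 94 more negative. The call at 0.05 turned on the tool and on single rats. DESeq2 called 646 genes, edgeR on all 11 male day 8 groups called 799, limma voom called 0, and leaving out 1 rat gave between 0 and 791 calls with 0 in 15 of 20 cases. The 5 rats that decided it were experiment A treated rat 3 (791 genes without it), experiment B treated rat 2 (688), experiment A treated rat 1 (624), experiment A vehicle rat 2 (117) and experiment B vehicle rat 1 (3). Of the genes DESeq2 called, 551 were also called with all 11 groups, which is 85.3% of the DESeq2 genes and 69% of the others, and 609 were among the 668 at adjusted p ≤ 0.1.

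**Figure D1:**
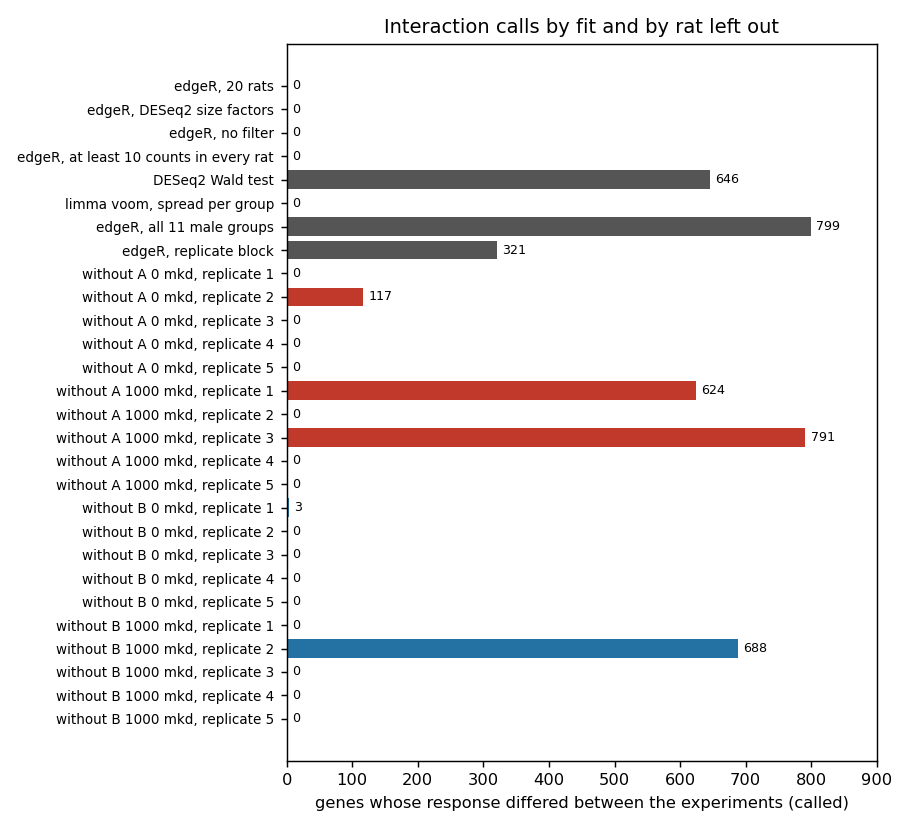
Number of genes whose response to 1000 mkd passed the test of a difference between experiments A and B (horizontal axis, |fold change| ≥ 1.5 and adjusted p ≤ 0.05), one bar per fit. Grey bars are fits with all rats, red and blue bars leave out 1 rat of experiment A or B. The count is 0 in the 20-rat edgeR fit, reaches 646 with DESeq2 and 799 with all 11 groups, and ranges from 0 to 791 when single rats are left out.

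In the 20-rat fit the adjusted p of the difference was above 0.05 for every gene named here, and differences are given with 95% intervals for the main genes. Genes that rose or fell passed the test within experiment A. Counts at adjusted p ≤ 0.1 keep the 1.5-fold limit. Genes named only to say which ones a small count holds were named after their values were seen. Counts of list members that rose or fell in experiment A stand against the 13.9% and 7.32% of all genes that did. Counts of list members at an unadjusted p under 0.05 in the interaction stand against 13.2% of all genes on the positive side and 8.68% on the negative side. In experiment B the median of every list other than S phase moved by over 1.5 times or changed sign when 1 rat was left out. In experiment A the median of all genes was 0.58 with library size scaling, against 0.00231 with TMM, and the medians of the lists were shifted with it.

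Interferon-stimulated genes held the 10 largest positive differences among genes at adjusted p ≤ 0.1 with at least 1 CPM in a group and no overlap of treated rats between the experiments. Of the 48 genes on the interferon list, 45 were measured and all 45 were tested. In experiment A 40 of the 45 rose and none fell, with a median log2 fold change of 2.35 (1.85 without treated rat 2), while the median of all genes tested was 0.00231. In experiment B 0 of the 45 reached an unadjusted p under 0.05 in either direction with edgeR, and their median was 0.197. Without experiment B treated rat 2 that median was 0.0706. In the interaction 34 of 45 reached an unadjusted p under 0.05, each more positive in experiment A, and 25 had an adjusted p ≤ 0.1. The fit with all 11 groups called 31 of the 45 and DESeq2 called 26.

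The 3 members with the smallest interaction p were Cxcl10, the chemokine that draws activated T cells, Ifit3, an antiviral protein of the IFIT family, and Rsad2 (viperin), an antiviral enzyme. Their promoters are printed because the interferon-stimulated response element, the DNA letters read by the transcription factors that interferons activate, lies in promoters of this kind. The stretches below are the 250 bases before the RefSeq start of each gene on build GRCr8, written 5′ to 3′ on the strand of the gene. Capitals mark the core of that element, which was searched on both strands as TTTC, then 2 free bases, then TTTC, and CCAAT where it occurs.
Cxcl10 (chr14:15988816-15989065, plus strand): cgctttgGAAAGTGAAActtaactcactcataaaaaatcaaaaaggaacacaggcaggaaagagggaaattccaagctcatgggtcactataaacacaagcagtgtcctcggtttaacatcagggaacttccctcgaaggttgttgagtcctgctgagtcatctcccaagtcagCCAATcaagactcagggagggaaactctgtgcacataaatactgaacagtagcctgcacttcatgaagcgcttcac
Ifit3 (chr1:241527076-241527325, plus strand): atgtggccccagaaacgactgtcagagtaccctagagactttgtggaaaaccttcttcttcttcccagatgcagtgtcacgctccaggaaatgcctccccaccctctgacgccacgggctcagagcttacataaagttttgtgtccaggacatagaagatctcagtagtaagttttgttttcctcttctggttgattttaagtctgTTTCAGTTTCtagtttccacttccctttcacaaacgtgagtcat
Rsad2 (chr6:48788121-48788370, minus strand): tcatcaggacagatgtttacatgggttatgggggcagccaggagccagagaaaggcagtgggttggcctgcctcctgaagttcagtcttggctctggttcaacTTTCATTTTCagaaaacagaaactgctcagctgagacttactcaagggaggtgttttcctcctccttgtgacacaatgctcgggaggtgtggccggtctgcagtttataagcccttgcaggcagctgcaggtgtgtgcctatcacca
In the Cxcl10 promoter the element was read on the opposite strand 243 bases before the start, in Ifit3 44 bases before it and in Rsad2 147 bases before it. The core was in 3.41% of the 33469 rat promoters of this length and in 21 of the 33 interferon list members that had a promoter in the table (63.6%). A match describes these letters only.

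Cxcl10 stood at 2.80, 4.77, 2.76, 2.86 and 3.37 CPM in experiment A vehicle rats 1 to 5 and at 14.4, 108.5, 13.3, 137.9 and 32.5 CPM in the treated rats. In experiment B it stood at 4.81, 5.21, 3.80, 5.46 and 7.03 CPM with vehicle and at 6.67, 8.81, 5.25, 3.84 and 5.62 CPM at 1000 mkd. The groups were fully apart in experiment A and overlapped in experiment B. The log2 fold change was 4.21 in experiment A and 0.21 in experiment B, a difference of 4.00 (95% interval 2.50 to 5.51, adjusted p = 0.0605, edgeR).

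Ifit3 ranged from 1.36 to 6.45 CPM in experiment A vehicle rats and stood at 13.6, 550.6, 17.4, 391.7 and 53.8 CPM in treated rats 1 to 5. In experiment B it ranged from 3.84 to 9.85 CPM with vehicle and stood at 6.11, 14.3, 4.98, 5.90 and 7.31 CPM at 1000 mkd. As with Cxcl10, treated rats 2 and 4 of experiment A were the highest and rats 1 and 3 the lowest of their group. The difference between the responses was 5.45 on the log2 scale (interval 3.14 to 7.77).

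Rsad2 gave the largest response of the 3 in experiment A, from 2.50 to 6.06 CPM with vehicle to 27.8, 948.9, 34.3, 1043 and 166.9 CPM at 1000 mkd. In experiment B it stood at 10.5, 28.1, 4.81, 8.85 and 7.81 CPM at 1000 mkd, and 4 of these 5 values lay above the vehicle range of 2.44 to 6.94 CPM. The log2 fold change in experiment B was 1.39 with an unadjusted p of 0.083 (edgeR), and the difference between the experiments was 5.42 (interval 3.10 to 7.75).

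Taking the genes at adjusted p ≤ 0.1 whose treated rats did not overlap between the experiments, 356 were more positive in experiment A, and the 10 with the largest differences were all interferon-stimulated. They were Gbp4, a guanylate-binding GTPase, with a difference of 5.55 on the log2 scale, then Ifit3 and Rsad2, then Oasl2 (4.38), an oligoadenylate synthetase-like protein, Cmpk2 (4.32), a mitochondrial nucleotide kinase encoded next to Rsad2, the antiviral GTPases Mx1 (4.08) and Mx2 (4.02), Cxcl10, and Oasl (3.79) and Oas2 (3.42) of the oligoadenylate synthetase family. For Gbp4 the spread inside experiment A was wide, with 2.94, 215.1, 2.98, 43.0 and 21.7 CPM in treated rats 1 to 5 against 0.945 to 2.15 with vehicle. In experiment B Gbp4 ranged from 1.46 to 3.78 CPM with vehicle and from 1.41 to 4.11 CPM at 1000 mkd. Mx2 was already expressed with vehicle, at 4.42 to 38.9 CPM in experiment A and 20.7 to 41.7 in experiment B. In treated rats it stood at 69.8 to 1871 CPM in experiment A and 23.4 to 97.0 in experiment B.

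Ifit1, an IFIT family member that the study names, did not follow the others. It stood at 0.0918, 294.3, 111.6, 1093 and 217.1 CPM in treated rats of experiment A, and at 1.44, 38.1, 0.0811, 12.0 and 0.181 CPM with vehicle. In experiment B the treated rats stood at 0.0279, 43.6, 0, 24.8 and 14.6 CPM and 1 of the 5 vehicle rats at 24.2 CPM with the other 4 at 0.0697 to 0.274. Each of the 4 groups held rats under 1.5 CPM and rats above 10 CPM. The difference between the responses was 3.36 with an interval from -1.54 to 8.25, and it was -1.32 without that vehicle rat.

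**Figure D2:**
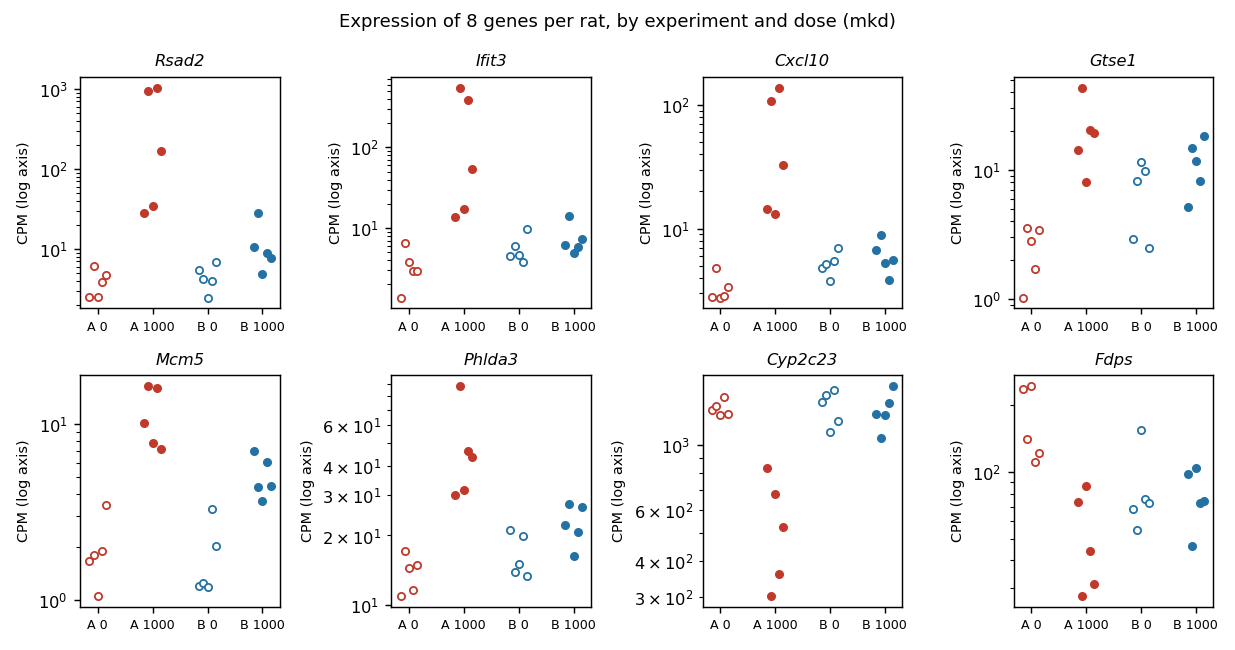
Expression of 8 genes in each rat (points, CPM on a log axis) for vehicle (open) and 1000 mkd (filled) in experiment A (red) and experiment B (blue), with 5 rats per group. Rsad2, Ifit3 and Cxcl10 separate fully in experiment A and overlap in experiment B, Mcm5 separates in both, and Cyp2c23 lies below its vehicle group in experiment A.

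Cell cycle genes were raised in experiment A and had the highest median of any list in experiment B. Of 46 tested G2/M phase genes (48 measured), 39 rose in experiment A and none fell, with a median log2 fold change of 1.57. In experiment B 45 of the 46 were above vehicle, 16 at an unadjusted p under 0.05 (edgeR) where 2.52% of all genes were, and their median was 0.739. That median did not rest on treated rat 2 (0.791 without it) and was 1.16 without vehicle rat 5. The median difference between the experiments was 0.644, but 0.392 without experiment B vehicle rat 5 and 1.09 without experiment A vehicle rat 5. Only 8 of 46 reached an unadjusted p under 0.05 in the interaction and 1 an adjusted p ≤ 0.1. The mean over the list lay above every vehicle rat in 5 of 5 treated rats of experiment A and in 3 of 5 of experiment B.

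For S phase genes, 21 of 39 tested (41 measured) rose in experiment A and 1 fell (Ung), with a median of 0.681, and the median in experiment B was 0.323. In experiment B 34 of 39 were above vehicle and 13 reached an unadjusted p under 0.05 (edgeR). In the interaction 16 were more positive and 2 more negative (Polr1b and Ubr7) in experiment A at that level, and 3 had an adjusted p ≤ 0.1. The list mean lay above every vehicle rat in 5 of 5 treated rats of experiment A and 4 of 5 of experiment B.

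Mcm5, a subunit of the helicase that opens DNA for replication, was separated from vehicle in both experiments. It stood at 1.05 to 3.44 CPM with vehicle and 10.0, 16.3, 7.72, 15.9 and 7.19 CPM at 1000 mkd in experiment A, and at 1.18 to 3.29 CPM with vehicle and 6.95, 4.37, 3.62, 6.08 and 4.41 CPM at 1000 mkd in experiment B. No treated rat overlapped with a vehicle rat in either experiment. The log2 fold changes were 2.53 and 1.53, and their difference of 1.00 had an interval from 0.02 to 1.99 (adjusted p = 0.221, edgeR).

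Of the 2417 genes called in experiment A, 28 did not overlap between treated and vehicle rats of experiment B in the same direction, as did 67 of all 11376 genes, and 0.738% of all genes separated there in either direction. Of those called, 17 were also apart in experiment A with at least 1 CPM in a group, 15 higher and 2 lower (Eprs and Pdhb). The 5 with the largest response were Uhrf1, which copies DNA methylation onto new strands, with 2.67 in experiment A and 1.52 in experiment B on the log2 scale, Mcm5, the histone chaperone Asf1b (2.48 and 1.65), the interferon-inducible Ifi27l2b (2.23 and 1.07) and the neuronal pentraxin receptor Nptxr (2.14 and 0.99). The flap endonuclease Fen1, which trims Okazaki fragments, was nearly equal in both, at 0.97 and 0.86. Its difference was 0.12 with an interval from -0.47 to 0.71, so a difference of up to 0.71 on the log2 scale is within its error. Pold2, a DNA polymerase delta subunit, had 0.73 and 0.34.

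Among the S phase members with the smallest interaction p were the replication licensing factor Cdc6, with a difference of 2.08 (interval 0.93 to 3.23), and the thymidylate synthase Tyms (1.28, interval 0.51 to 2.05). Cdc6 rose by 2.26 in experiment A and stood at 0.18 in experiment B. Tyms reached 11.6 to 26.9 CPM in treated rats of experiment A from 4.64 to 8.63 with vehicle, and 4.22 to 11.0 CPM in experiment B from 4.88 to 8.61.

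For G2/M phase the smallest p belonged to Gtse1, a microtubule-binding protein of G2 and S phase that restrains p53. Its promoter is shown beside those of the interferon genes as a member of another programme, and it held none of the 3 motifs searched.
Gtse1 (chr7:118829923-118830172, plus strand): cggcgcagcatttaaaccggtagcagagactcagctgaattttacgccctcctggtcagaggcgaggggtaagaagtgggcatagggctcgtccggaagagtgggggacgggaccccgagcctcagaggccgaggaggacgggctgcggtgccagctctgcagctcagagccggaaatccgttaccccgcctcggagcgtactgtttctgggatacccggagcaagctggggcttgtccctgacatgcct
Over the G2/M list, 23 of 41 promoters held TTTGAA, the core of the cell cycle homology region (56.1%, against 16.2% of all promoters), and 30 of 41 held CCAAT (73.2%, against 34% of all), both read on either strand. The interferon element core was in 2 of the 41.

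Gtse1 stood at 1.02, 3.52, 2.84, 1.71 and 3.44 CPM with vehicle and 14.4, 43.3, 8.00, 20.5 and 19.3 CPM at 1000 mkd in experiment A. In experiment B it stood at 2.89, 8.18, 11.5, 9.74 and 2.51 CPM with vehicle and 5.14, 14.9, 11.8, 8.18 and 18.2 CPM at 1000 mkd. The difference of 2.34 (interval 0.93 to 3.74, adjusted p = 0.0749, edgeR) stood beside a vehicle difference, experiment A minus B, of -1.48 (adjusted p = 0.12). Kif11, the motor that separates spindle poles, had a difference of 1.04 (interval 0.21 to 1.87). Mki67, which encodes the proliferation marker Ki67, rose by 2.02 in experiment A and stood at 1.07 in experiment B (unadjusted p = 0.038), and the difference of 0.95 had an interval from -0.46 to 2.36.

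**Figure D3:**
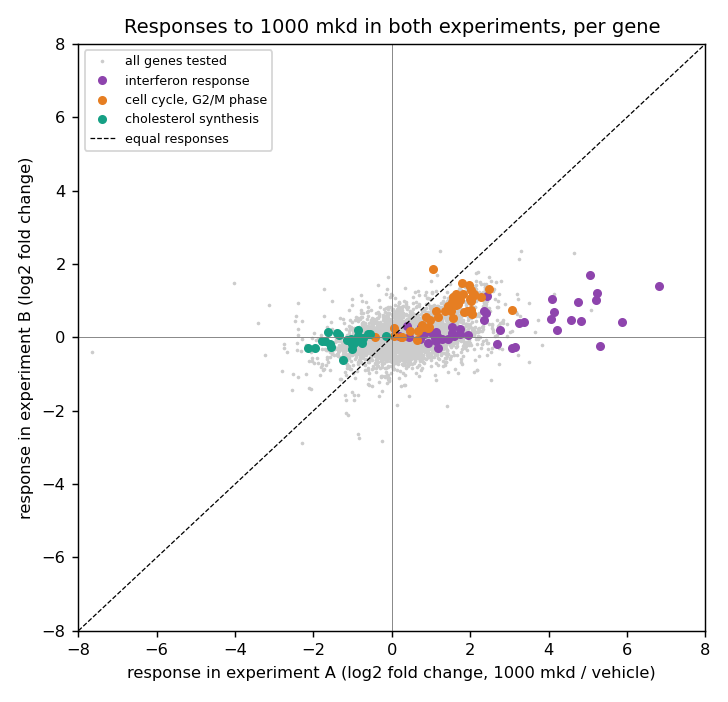
Log2 fold change over vehicle at 1000 mkd for each of 11376 genes in experiment A (horizontal axis) and experiment B (vertical axis), with 3 gene lists in colour and equal responses as a dashed line. Interferon genes lie far to the right near a vertical value of 0, G2/M genes lie to the right and above 0, and cholesterol synthesis genes lie to the left near 0.

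Targets of p53, the factor that stops the cell cycle after damage, had a higher median in experiment A than in experiment B. Of 23 tested, 10 rose and 1 fell (Ddb2) in experiment A (median 0.765, and 0.539 without treated rat 2), and in experiment B 18 of 23 were above vehicle with a median of 0.0874 (0.198 without vehicle rat 3). The list mean lay above every vehicle rat in 5 of 5 treated rats of experiment A and in 4 of 5 of experiment B. It was higher than in vehicle rats by 0.666 in experiment A and 0.216 in experiment B on the log2 scale. In the interaction 9 were more positive at an unadjusted p under 0.05 and none more negative (edgeR). Phlda3, which restrains the kinase AKT, went from 10.9 to 17.2 CPM with vehicle to 29.9, 88.5, 31.5, 46.3 and 43.7 CPM at 1000 mkd in experiment A. In experiment B it went from 13.4 to 21.1 CPM to 22.1, 27.5, 16.3, 20.7 and 26.5 CPM. The difference was 1.35 (interval 0.63 to 2.07, adjusted p = 0.0649, edgeR). The death receptor Tnfrsf10b had a difference of 0.92 and the pro-apoptotic Bax one of 0.65. Bax was also 1 of the 17 genes apart from vehicle in both experiments, at 5.95 to 8.63 CPM against 11.9 to 19.8 in experiment A and 6.98 to 8.15 against 8.54 to 10.3 in experiment B.

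Several lists of hepatocyte metabolism had negative medians. Among them cholesterol synthesis had the lowest: 19 of 25 genes fell in experiment A and none rose (median -1.03), while in experiment B 8 of 25 were above vehicle, none reached an unadjusted p under 0.05 by edgeR, and the median was -0.0854. In the interaction 16 of 25 were more negative in experiment A at an unadjusted p under 0.05 and 2 had an adjusted p ≤ 0.1. Fdps, the farnesyl diphosphate synthase, stood at 235.9, 141.2, 244.5, 110.6 and 122.5 CPM with vehicle and 73.7, 27.6, 86.2, 44.1 and 31.4 CPM at 1000 mkd in experiment A. In experiment B it stood at 68.4, 54.9, 155.1, 75.8 and 72.3 CPM with vehicle and 97.7, 46.3, 104.9, 72.5 and 74.5 CPM at 1000 mkd. The vehicle difference, experiment A minus B, was 1.00 on the log2 scale (adjusted p = 0.13, edgeR), and the difference between the responses was -1.59 (interval -2.60 to -0.58). The sterol isomerase Ebp differed by -0.98 and the sterol reductase Tm7sf2 by -1.41.

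Fatty acid genes followed. Of 35 targets of PPARα, the receptor that drives fatty acid oxidation, 19 fell and 1 rose in experiment A (median -0.676), against a median of 0.0165 in experiment B, and 16 were more negative in the interaction at an unadjusted p under 0.05 with none more positive. Acsl1, which activates long-chain fatty acids, stood at 1858 to 2588 CPM with vehicle and 1246, 243.8, 1329, 809.5 and 850.7 CPM at 1000 mkd in experiment A. In experiment B it stood at 2036 to 2897 CPM with vehicle and 1820 to 3104 CPM at 1000 mkd. Its difference was -1.40 (interval -2.26 to -0.54), and the carnitine shuttle genes Cpt2 and Slc25a20 differed by -0.71 and -0.72. Acot1, an acyl-CoA thioesterase and the PPARα target that the study names, went against the list. It rose by 3.28 on the log2 scale in experiment A and stood at 2.35 in experiment B (unadjusted p = 0.0081, edgeR), with a difference of 0.94 whose interval ran from -1.42 to 3.29.

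Of 18 fatty acid synthesis genes 9 fell and 1 rose (Pnpla3) in experiment A (median -0.722, against -0.194 in experiment B, which was -0.0671 without treated rat 2 and -0.359 without treated rat 1). Only 2 of the 18 reached an unadjusted p under 0.05 in the interaction, the fatty acid synthase Fasn and Scd1. Scd1, the desaturase that makes oleate, had the largest difference of the list, -4.02 with a wide interval from -6.29 to -1.75 (adjusted p = 0.0649, edgeR). Its vehicle rats spread from 178.9 to 2340 CPM in experiment A and from 120.5 to 858.3 CPM in experiment B, and the treated rats stood at 25.1 to 300.9 and 125.5 to 1825 CPM.

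Cytochrome P450 genes, the urea cycle and genes under growth hormone control also had negative medians in experiment A, and with library size scaling these were -0.326, -0.132 and -0.361. Of 26 xenobiotic P450 genes 14 fell and 1 rose (Cyp2c24) in experiment A (median -0.80, and 0.0488 in experiment B), and 13 were more negative in the interaction at an unadjusted p under 0.05. Cyp2c23, an arachidonate epoxygenase, had 1266 to 1463 CPM with vehicle and 830.8, 302.6, 677.4, 362.2 and 523.2 CPM at 1000 mkd in experiment A. In experiment B it had 1109 to 1544 CPM with vehicle and 1054 to 1593 CPM at 1000 mkd. The difference was -1.27 (interval -1.90 to -0.64, adjusted p = 0.0631, edgeR). Cyp1a2, the main P450 for aromatic amines, differed by -1.54, and there the vehicle groups also differed, with experiment A higher by 1.33 on the log2 scale (adjusted p = 0.041, edgeR). Treated rats of both experiments overlapped for Cyp1a2, at 366.8 to 754.6 CPM in experiment A and 453.7 to 909.3 CPM in experiment B.

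Of 41 genes of the urea cycle and amino acid breakdown, 18 fell and none rose in experiment A (median -0.683, and 0.00945 in experiment B), and 12 were more negative in the interaction at an unadjusted p under 0.05. Ftcd, of histidine breakdown, differed by -1.03, Dpys, of pyrimidine breakdown, by -0.99, and the ornithine aminotransferase Oat by -1.86. Of 26 growth hormone dependent or sex-biased genes 11 fell (median -0.851, and -0.183 in experiment B). Igfals, which holds IGF1 in the blood, differed by -0.79 and the growth hormone receptor Ghr by -0.90. For bile acid genes 8 of 18 fell and 1 rose, with the uptake transporters Slc10a1 (-1.01) and Slco1a1 (-0.98) on the negative side and the exporter Abcc3 (1.52) on the positive side, each at an unadjusted p under 0.05 and none at adjusted p ≤ 0.1 (edgeR). Of 20 acute phase genes 10 fell, and 3 of 18 fasting and gluconeogenesis genes fell (Fbp1, Pklr and Slc37a4).

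Stress lists gave fewer calls. Of 26 NRF2 targets 7 rose and 1 fell (Gsta2) in experiment A, where their median was 0.16. Their median difference between the experiments was near 0, at 0.0392, with 14 of 26 on the positive side. Yet the list mean was higher than in vehicle rats by 0.253 in experiment A and 0.0482 in experiment B on the log2 scale. It lay above every vehicle rat in 5 of 5 treated rats of experiment A. In experiment B it lay above in 1 of 5 and below in 1 of 5. In the interaction 2 members had an adjusted p ≤ 0.1 (edgeR), the heme oxygenase Hmox1 (difference 1.32) among them. Of 23 ATF4 targets and serine synthesis genes 6 rose and 2 fell (Atf5 and Aldh1l2), and their median difference of 0.325 became -0.0167 without experiment A treated rat 2. The stress factor Ddit3 (CHOP) went from 10.0 to 18.7 CPM with vehicle to 20.6, 85.9, 17.6, 34.7 and 36.0 CPM at 1000 mkd in experiment A. In experiment B it stood at 8.41 to 14.6 CPM with vehicle and 10.6 to 16.6 CPM at 1000 mkd. Of 23 chaperone and endoplasmic reticulum stress genes 1 rose (Hspb1) and 3 fell (Pdia4, Dnajb9 and Edem1), and the sign of their median difference flipped from -0.414 to 0.0769 with library size scaling. The small chaperone Hspb1 (1.55) was more positive in experiment A. Of 18 immediate early and growth signal genes 3 rose (Klf6, Hbegf and Ccnd1), a share near the 13.9% of all genes, and of 14 circadian clock genes 0 passed in either direction in experiment A and 0 reached an unadjusted p under 0.05 in the interaction (edgeR).

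**Figure D4:**
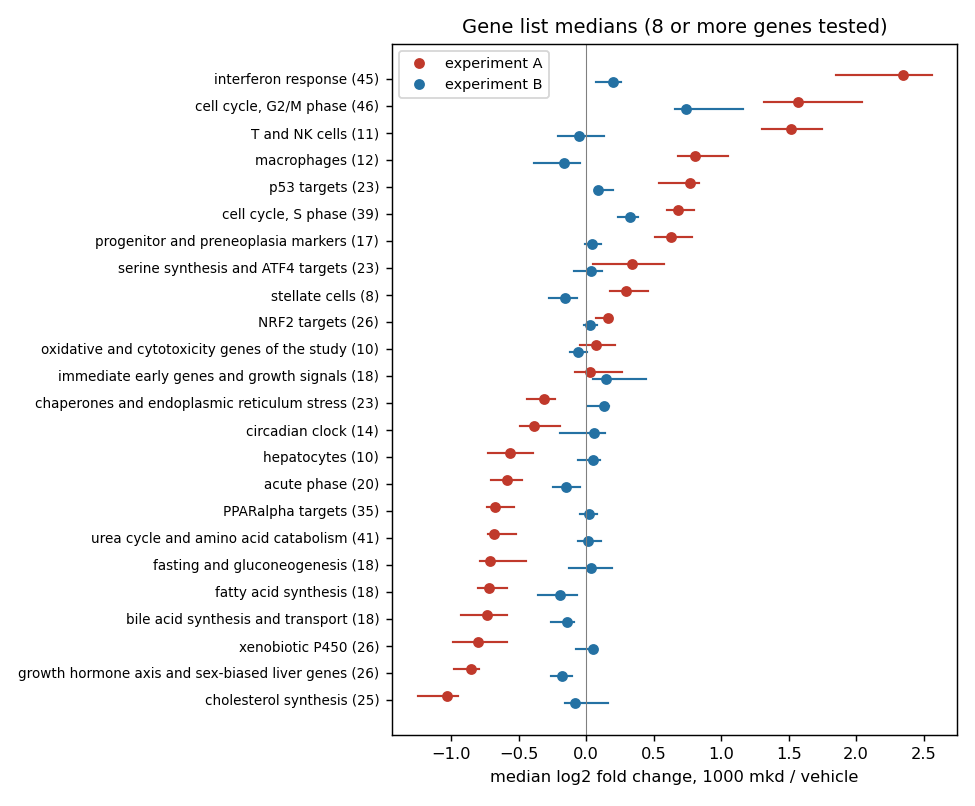
Median log2 fold change at 1000 mkd over the tested members of each gene list with at least 8 tested genes (points), in experiment A (red) and experiment B (blue), with the number of members in brackets and lines from the lowest to the highest median when single rats are left out. Among these lists, medians in experiment A run from -1.03 for cholesterol synthesis to 2.35 for interferon response, and in experiment B the G2/M phase list is farthest from 0 at 0.739.

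Markers of T cells, NK cells and macrophages moved with the experiment A response. In bulk tissue, a change in the number of cells of a type and a change in RNA per cell cannot be told apart. Of 11 tested T and NK cell markers (12 measured), 10 rose in experiment A with a median of 1.52, and 8 were more positive in the interaction at an unadjusted p under 0.05, 6 of them at adjusted p ≤ 0.1. In experiment B the median was -0.0553. The summed level of these markers was 35.7 to 40.1 CPM in experiment A vehicle rats and 57.9 to 102.2 at 1000 mkd, and 37.3 to 64.4 and 31.2 to 77.0 in experiment B. Cd8a, the co-receptor of cytotoxic T cells, differed by 1.49, perforin (Prf1) by 1.71 and granzyme B (Gzmb) by 3.48, the last at 0.0918 to 1.39 CPM in treated rats of experiment A. Gzmb rested on few reads, 1 to 6 in experiment A vehicle rats, 3 to 48 in its treated rats and 2 to 9 in experiment B. These markers moved with the interferon genes, and their part in that result was not tested.

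Of 12 macrophage markers 7 rose in experiment A and none fell (median 0.802, and -0.162 in experiment B). All 12 were more positive in experiment A in the interaction, 7 of them at an unadjusted p under 0.05. Their mean lay above every vehicle rat in only 2 of 5 treated rats of experiment A. In experiment B it lay above in 1 of 5 and below in 2 of 5. Cd68, the lysosomal protein of phagocytes, stood at 20.3 to 42.4 CPM with vehicle and 65.9 to 104.5 CPM at 1000 mkd in experiment A, with no overlap. In experiment B it stood at 22.8 to 43.1 CPM with vehicle and 22.6 to 56.7 CPM at 1000 mkd. The difference was 1.5 (interval 0.79 to 2.21, adjusted p = 0.0623, edgeR). Csf1r, the receptor that keeps macrophages alive, differed by 1.02 and lysozyme (Lyz2) by 1.28. Among 17 progenitor and preneoplasia markers 6 rose, led in the interaction by galectin-3 (Lgals3, 1.90), the hyaluronan receptor Cd44 (1.96) and Anxa2 (1.38), genes that macrophages express too. Cdh5, the cadherin of endothelial junctions, differed by 1.63, and 2 of 6 endothelial (Cdh5 and Lyve1) and 1 of 8 stellate cell markers (Pdgfrb) rose, the last a share near the 13.9% of all genes.

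Erythroid markers went the other way. Of 6 tested (9 measured), Hbb, Hbb-b1 and Alas2 fell in experiment A and had a more negative response there at adjusted p ≤ 0.1. Hbb-b1, a beta globin, stood at 32.5 to 46.9 CPM with vehicle and 14.0, 2.88, 12.2, 3.71 and 8.09 CPM at 1000 mkd in experiment A, with no overlap. In experiment B it stood at 27.8, 19.6, 4.08, 18.7 and 15.1 CPM with vehicle and 16.3, 7.68, 22.6, 22.8 and 14.2 CPM at 1000 mkd. Hbb-b1 differed by -2.25, Hbb by -2.75 and Alas2, the erythroid enzyme of heme synthesis, by -2.62. Vehicle rats of experiment A were above all vehicle rats of experiment B for these 3 genes. The vehicle differences were 1.63 for Hbb (adjusted p = 0.103, edgeR), 1.21 for Hbb-b1 and 1.37 for Alas2 on the log2 scale. Whether the higher vehicle levels account for the negative differences was not tested. Globin copies are close in sequence, as are some members of the Acot and Cyp2c families. Reads of such copies may be miscounted, so the value of any 1 copy is uncertain. The summed erythroid level was 229.0 to 322.6 CPM in experiment A vehicle rats, 23.3 to 111.1 CPM in its treated rats, and 33.0 to 221.4 CPM over experiment B. The hepatocyte markers fell in 4 of 10 cases in experiment A (Alb, Apob, Fgb and Ttr), transthyretin (Ttr) with a difference of -1.04. Their summed level at 1000 mkd was 94450 to 288700 CPM in experiment A and 214300 to 307100 CPM in experiment B.

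None of the 3 tested B cell markers and none of the 4 cholangiocyte markers passed in experiment A (edgeR), and none reached an unadjusted p under 0.05 in the interaction. Of 8 neutrophil markers 3 were high enough to test. S100a8 and S100a9, which neutrophils carry in their granules and cytoplasm, fell by 1.82 and 1.74 on the log2 scale in experiment A and stood at -1.02 and -0.86 in experiment B. Their differences of -0.80 and -0.88 had intervals that included 0, at -2.31 to 0.71 and -2.34 to 0.57. The remaining tested neutrophil marker did not fall in experiment A, at 0.07, and stood at -0.42 in experiment B. Its difference of 0.49 was of the opposite sign (interval -0.79 to 1.78). The mean over the 3 tested markers still lay below every vehicle rat in 5 of 5 treated rats of experiment A and 2 of 5 of experiment B.

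Over all genes, list members such as Fdps and Hbb-b1 included, 61 were more negative in experiment A at adjusted p ≤ 0.1 with no overlap of treated rats. The genes described next are on none of the lists. Alox15, a lipoxygenase, differed by -3.02, and its vehicle level was higher in experiment A by 2.21 on the log2 scale (adjusted p = 0.026, edgeR), at 1.05 to 3.28 CPM against 0.0348 to 0.787 CPM. Dpt, the matrix protein dermatopontin, stood at 419.4 to 682.3 CPM with vehicle and 74.2 to 213.7 CPM at 1000 mkd in experiment A, and at 158.6 to 519.0 and 205.8 to 462.9 CPM in experiment B. Hacl1, of peroxisomal alpha-oxidation, differed by -1.98, falling from 254.1 to 588.5 CPM to 21.9 to 259.6 CPM in experiment A, while experiment B treated rats stood at 445.3 to 622.8 CPM. Mpped1 had 0 reads in all 5 treated and in 2 of 5 vehicle rats of experiment A and 33 to 115 reads in the rats of experiment B, so no fold is given for it.

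The study names 22 genes, and its choice rested partly on these libraries, so their counts are not independent evidence. In experiment A 7 rose and 3 fell (Cyp1a2 and the antioxidant enzymes Sod1 and Gpx1), and in the interaction 5 were more positive (Hebp2, Akr1b8, Rnd1, Tes and S100a10) and the same 3 more negative at an unadjusted p under 0.05. Hebp2, a heme-binding protein, had the largest difference, 3.70 (interval 1.70 to 5.70, adjusted p = 0.0649, edgeR). It stood at 2.33, 12.0, 0.704, 5.19 and 6.02 CPM in treated rats of experiment A from 0.548 to 1.59 with vehicle. In experiment B it stood at 2.93, 0.716, 0.757, 0.492 and 0.534 CPM from 0.536 to 5.68 with vehicle, so the groups overlapped in both experiments. The small GTPase Rnd1 differed by 2.35 (interval 1.04 to 3.66), and the aldo-keto reductase Akr1b8 by 3.29 at levels of at most 1.87 CPM. Chek2, the checkpoint kinase, stood at 0.55 in experiment A, under the 1.5-fold limit, and at 0.38 in experiment B, with a difference of 0.18 (interval -0.26 to 0.61). Carbonic anhydrase 3 (Car3) differed by -0.85 with an interval from -2.45 to 0.74.

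The sign of each response was then compared. Of the 2417 genes called in experiment A, 71.5% had the same sign in experiment B, against 61.4% of all genes tested, and 51.9% without experiment B treated rat 2. The genes higher in experiment A had a median log2 fold change of 1.16 there and 0.11 in experiment B, where 67.3% were above vehicle. The genes lower in experiment A had medians of -0.795 and -0.129, and 79.4% were below vehicle in experiment B. These genes were chosen for a large change in experiment A, so the larger medians there partly restate the choice. Across all 11376 genes, which are not independent replicates, Pearson's r between the responses was 0.364 and Spearman's rho 0.309, as a description.

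Per rat, the same genes were summarised as the median distance from the mean of the own vehicle group in log2 CPM. For the genes higher in experiment A, which were chosen on those rats, treated rats 1 to 5 of experiment A stood at 0.716, 1.49, 0.638, 1.36 and 1.17. The treated rats of experiment B, which had no part in the choice, stood at 0.0128, 0.530, -0.0998, -0.0349 and 0.148, against -0.155 to 0.195 in their vehicle group. Rat 2 of experiment B was thus the only treated rat above every vehicle rat, and it also stood lowest for the genes lower in experiment A, at -0.463 against -0.143 to 0.132 for the other 4. For the genes higher in experiment A, no experiment B rat at any dose reached the lowest treated rat of experiment A. For the genes lower in experiment A, rat 2 of experiment B (-0.463) lay below rat 3 of experiment A (-0.426).

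The same measure was followed over all doses. Experiment B gave means of 0.0418, 0.121, 0.0959, 0.111 and 0.271 for the genes higher in experiment A at 300, 500, 750, 1000 and 1500 mkd, so that the 5 rats at 1500 mkd (0.271 ± 0.205, SD) lay below the 5 rats of experiment A at 1000 mkd (1.08 ± 0.382, SD). At 300 mkd, the other dose given in both, the means were 0.0971 ± 0.18 (SD, n = 5) in experiment A and 0.0418 ± 0.126 (SD, n = 5) in experiment B. The interaction at 300 mkd held 0 of 11158 genes with edgeR and with DESeq2, and 100 genes (0.896%) at an unadjusted p under 0.05.

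**Figure D5:**
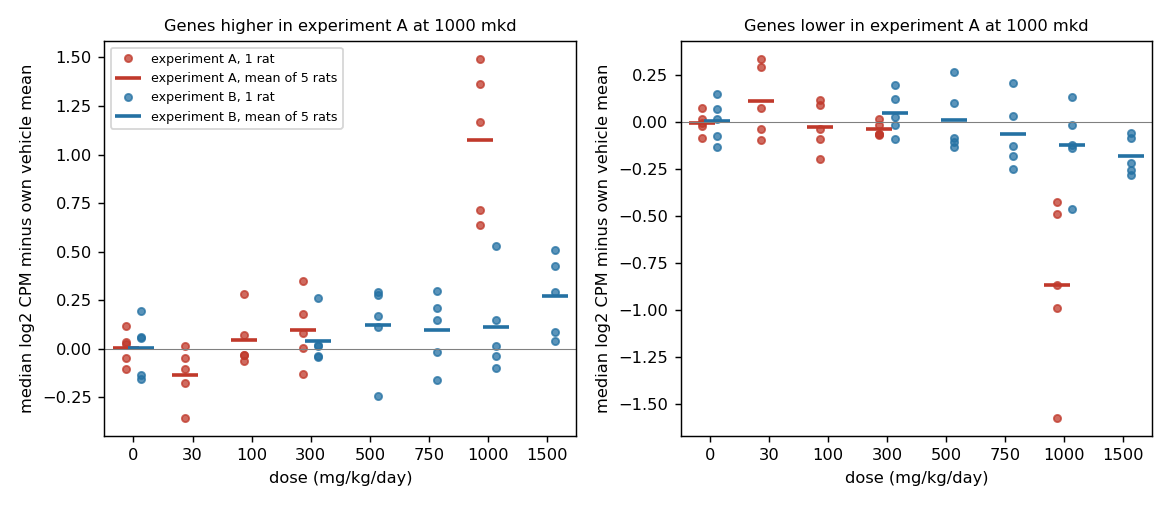
Median log2 CPM minus the mean of the own vehicle group, per rat, over the genes higher (left) and lower (right) at 1000 mkd in experiment A, against dose in mg/kg/day. Points are single rats and bars are means of 5 rats, red for experiment A and blue for experiment B. At 1000 mkd all 5 experiment A rats lie above 0.6 on the left, and the 5 experiment B rats lie between -0.0998 and 0.530.

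The programmes differed in how experiment B behaved over dose. The G2/M phase list mean lay 0.13, 0.373, 0.742, 0.747 and 1.15 above vehicle in log2 CPM at 300 to 1500 mkd in experiment B, and 1.48 at 1000 mkd in experiment A. The interferon list mean lay 0.239, 0.269, 0.127, 0.284 and 0.194 above vehicle over the same doses, with no order, and 2.32 at 1000 mkd in experiment A (0.827 to 3.55 over its 5 rats). At 300 mkd in experiment A it lay at 0.499, with rats from -0.271 to 2.05. In single genes, Rsad2 stood at 1.67 on the log2 scale over vehicle at 1500 mkd in experiment B and at 6.80 at 1000 mkd in experiment A, in the fit of all 11 groups. Acot1 stood at 4.94 at 1500 mkd in experiment B against 3.27 at 1000 mkd in experiment A, and Uhrf1 at 1.5 against 2.65.

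The vehicle groups differed less than the treated groups. Vehicle rats of the experiments differed in 131 of 11376 genes (40 higher in experiment A, 91 lower) and treated rats in 1584 (1086 higher, 498 lower) with edgeR. At an unadjusted p under 0.05 the shares were 17.3% for vehicle and 33.8% for treated rats (edgeR). Of the genes described above, Cyp1a2 and Alox15 were among the 131. Vehicle rats of the experiments also did not overlap for Hbb, Hbb-b1, Alas2, Dpys, Ftcd, Sod1 and Tnfrsf10b. The share of all genes without overlap of vehicle rats was not counted, so this does not set these genes apart.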

How the data were processed

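RNA-Seq of left liver lobe was analysed for 20 male rats, 5 per group, grouped by the experiment, dose and duration in the labels. The deposited values are raw counts per gene. The authors made them from stranded libraries, with Trimmomatic for trimming, Bowtie2 against UCSC Rn6 and HTSeq for counting, in versions not given in the sources used here, and they tested with DESeq2. The tables of both experiments were joined on the 17337 gene symbols they share. Summary lines that name no gene, 40.0 to 56.7% of reads in experiment B, were left out, and 0 sample columns were unused. Depth ran from 20196236 to 37001581 gene reads per rat, and depth limits precision most for genes near 1 CPM.

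Counts were filtered with filterByExpr, scaled by TMM and fitted with the quasi-likelihood test of edgeR 4.0.16 in R 4.3.3, without covariates, and adjusted by the Benjamini-Hochberg method over all genes tested. A gene was called at |fold change| ≥ 1.5 and adjusted p ≤ 0.05, the criteria of the study. CPM is scaled by TMM, and log2 CPM has a prior count of 2. Alternatives were DESeq2 1.42.0, limma 3.58.1 (voom), DESeq2 size factors, other filters, all 11 male day 8 groups, a replicate block and each rat left out. Library size scaling and leaving out replicate 2 of both treated groups together were chosen after seeing the data. The procedure was tested on simulated data. Nothing in the labels pairs rats or says more than that they are separate animals, so p-values measure the spread between these rats.

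Genes were named by a rule: the 10 largest differences in each direction among called genes with at least 1 CPM and no overlap of treated rats, the genes the study names, up to 3 members per list with the smallest interaction p, genes called in experiment B or in opposite directions, and the genes with the largest and smallest experiment A response that separated in both experiments. As 0 genes were called, the first part was applied at adjusted p ≤ 0.1, a change made after seeing the data. Some genes the rule names are not reported here. The gene lists and the comparison itself were chosen with earlier results of these data known, so lists are described by counts and medians without a test. Promoters are from RefSeq on GRCr8, matched by symbol for 89 of the 128 named genes. Only the sequences were used from that build, whereas the counts are on Rn6.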

Additional observations from a re-analysis of the deposited data

Results flagged for a closer look

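In 440 groups of 5 rats looked at, over the genes named above and 4 list means, the per-rat summaries and the scaling factors, 1 rat stood apart from the other 4 by more than Dixon's 95% limit in 25 cases. By chance about 1 in 20 independent groups would pass that limit. These groups reuse the same 20 rats and are not independent, so the 25 cases cannot be read against that share. All values here are in log2 CPM.

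In experiment A vehicle rats, the acyl-CoA thioesterase Acot1 stood at 1.12 in rat 5 and at -2.19 to -1.46 in the others. There Acsl1 stood at 10.9 in rat 2 and Ddit3 at 4.23 in rat 2, against 3.33 to 3.59 in the others for Ddit3. Igfals was 9.19 in rat 1 and 8.47 to 8.63 in the others, and Tyms was 3.12 in rat 5 and 2.23 to 2.46 in the others.

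In experiment A treated rats, rat 2 was the one apart for 4 genes. Bax stood at 4.31 in it, Tnfrsf10b at 4.63 and the small chaperone Hspb1 at 6.84, each above the other 4 rats, which for Hspb1 lay at 4.85 to 5.19. S100a9 stood at -1.66 in it and at -0.102 to 0.076 in the others. Chek2 was low in rat 3, at 1.88 against 2.09 to 2.13, and Ifit1 in rat 1, at -2.65 against 6.8 to 10.1.

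In experiment B vehicle rats, the desaturase Scd1 stood at 6.91 in rat 2 and at 8.99 to 9.75 in the others, and Ifit1 at 4.6 in rat 2 and at -2.87 to -1.55 in the others. Carbonic anhydrase 3 (Car3) was 8.61 in rat 1 against 10.2 to 10.8. Anxa2 was high in rat 5 at 3.13, Fbp1 low in rat 3 at 9.31 and Ifi27l2b low in rat 4 at 6.59.

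In experiment B treated rats, rat 2 was again the one apart most often. It had Gbp4 at 2.06 (0.559 to 0.931 in the others), Lgals3 at 5.41 (3.96 to 4.38) and Rnd1 at 2.17 (1.2 to 1.35) on the high side. On the low side it had Slc10a1 at 8.71 (9.61 to 9.78), Gsta2 at 0.786 (1.68 to 1.78) and the mean of the cholesterol synthesis genes at 4.82 (5.46 to 5.71). Hebp2 was high in rat 1 at 1.58 (-0.839 to -0.278), and Pdgfrb low in rat 3 at 4.31 (4.93 to 5.16).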

How the results depend on the processing

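The number of genes whose response differed between the experiments was 0 with edgeR on 20 rats, with DESeq2 size factors, with no filter, with at least 10 counts in every rat and with limma voom. It was 646 with DESeq2 (531 more positive in experiment A, 115 more negative), 799 with all 11 groups in the fit (570 and 229), 1462 with library size only (1442 and 20) and 464 without replicate 2 of both treated groups. With the replicate block it was 321 (296 and 25). Rats with the same replicate label did not deviate together, with correlations from -0.0861 to 0.198 in experiment A and -0.227 to 0.282 in experiment B, so the numbers were not taken as pairs. Leaving out 1 rat gave 0 to 791 genes, 0 to 614 more positive and 0 to 177 more negative. For the response in experiment A the count was 1649 to 2906 without 1 rat and 5333 with library size only (5191 higher and 142 lower), and in experiment B it was 0 to 0 without 1 rat and 2 with DESeq2. The share of experiment A genes with the same sign in experiment B was 51.9 to 77.0% without 1 rat and 75.0% with library size only. The count at 300 mkd was 0 in every alternative run. The difference for Ifit1 was -1.32 to 4.94 without 1 rat, the lowest without experiment B vehicle replicate 2, and with library size only the differences of Eprs (0.129), Pdhb (0.195), Polr1b (0.0361), Ubr7 (0.193) and Ung (0.018) became positive, and no other gene named here changed the sign of its difference in an alternative. The cause of these changes was not tested. With 5 rats per group and near 1 CPM, differences smaller than their printed intervals could not be detected.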
